A study of Mus musculus with 6 samples.

Results

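Fabp6 and the other genes of bile acid handling were followed across 6 colon libraries, 3 from Smad4 knockout mice and 3 from Smad4 wild-type mice. The set was named as 9 genes, Fabp6, Slc10a2, Slc51a, Slc51b, Abcc3, Nr1h4, Nr0b2, Gpbar1 and Fgf15, and its members were chosen by role with the knockout and wild-type counts of these libraries known, Fabp6 being selected on its lower count in knockout. Of the 9 genes, 8 were found among the 22354 genes of the deposited table, 6 of them by symbol and Slc51a and Slc51b by gene identifier under their older symbols Osta and Ostb. Nr0b2 was not analysed here. All mice were of strain C57BL/6J and were taken 1 month after tamoxifen. The knockout genotype is written Smad4ΔLrig1 and the control genotype SMAD4+. The driver of the deletion and the age and sex of the mice are not stated in the labels. According to the labels, EDTA was used to strip the crypts, and RNA was taken from the subepithelial layer, separated from muscle by scraping. The marker levels given below do not match that description.

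Bile acids are made in the liver, released into the gut and largely taken back in the ileum. The apical sodium-dependent transporter Slc10a2 (ASBT) brings them into the enterocyte, the cytosolic protein Fabp6 (ileal bile acid binding protein) binds them there, and the 2-subunit carrier of Slc51a and Slc51b (OSTα and OSTβ), together with the ABC pump Abcc3 (MRP3), can pass them out through the basolateral membrane. Inside the cell they activate the nuclear receptor Nr1h4 (FXR), which pairs with a retinoid X receptor and raises transcription of Fabp6, Slc51a, Slc51b, Nr0b2 (SHP) and, in the mouse ileum, the hormone gene Fgf15. Gpbar1 (TGR5) is a membrane receptor for bile acids. The colon also takes up bile acids, largely those altered by bacteria.

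FXR is known to bind an inverted repeat of the half-site AGGTCA with 1 base between the copies, so the promoters of the FXR target genes Fabp6, Slc51b and Slc51a are shown, from RefSeq on GRCm38.p6. Each runs 5′ to 3′ on the gene's strand from 250 bases before the start of transcription to 50 bases after it, and capitals mark places that match AGGTCANTGACCT with at most 3 mismatches, a limit chosen after the matches were seen. The Fabp6 promoter lies at chr11:43601513-43601812 (minus strand), that of Slc51b at chr9:65422724-65423023 (minus strand) and that of Slc51a at chr16:32487830-32488129 (minus strand).
Fabp6: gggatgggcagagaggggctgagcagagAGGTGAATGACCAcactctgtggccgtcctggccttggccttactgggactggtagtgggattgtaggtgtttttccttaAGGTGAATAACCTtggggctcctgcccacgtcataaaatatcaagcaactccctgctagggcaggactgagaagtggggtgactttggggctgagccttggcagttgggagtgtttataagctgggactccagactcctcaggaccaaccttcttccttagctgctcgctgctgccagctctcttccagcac
Slc51b: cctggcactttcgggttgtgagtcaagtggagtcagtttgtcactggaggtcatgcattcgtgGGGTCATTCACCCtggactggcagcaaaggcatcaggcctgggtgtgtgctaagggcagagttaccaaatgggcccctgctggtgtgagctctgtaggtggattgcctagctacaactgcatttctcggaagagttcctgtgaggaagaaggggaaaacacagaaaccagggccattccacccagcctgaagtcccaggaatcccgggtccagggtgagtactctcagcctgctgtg
Slc51a: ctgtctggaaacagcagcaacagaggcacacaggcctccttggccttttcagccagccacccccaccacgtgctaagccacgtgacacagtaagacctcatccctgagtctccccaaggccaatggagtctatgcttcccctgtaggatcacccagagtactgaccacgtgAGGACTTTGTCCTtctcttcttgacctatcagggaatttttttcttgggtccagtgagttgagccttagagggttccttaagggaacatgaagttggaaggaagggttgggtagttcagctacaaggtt

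The Fabp6 promoter held 2 such places, AGGTGAATGACCA, starting 222 bases before the start of transcription, and AGGTGAATAACCT, starting 142 bases before it, each with 2 mismatches. Among 32851 mouse promoters of the same length, 374 (1.14%) held at least 1 place with 2 or fewer mismatches, and 4 (0.0122%) held 2 or more. The cutoff of 2 mismatches is that of the Fabp6 places themselves. At the limit of 3 mismatches, 257 promoters (0.782%) held 2 or more places. The motif reads the same on both strands. The Slc51b and Slc51a promoters held 1 place each with 3 mismatches, GGGTCATTCACCC and AGGACTTTGTCCT, a degree of match that 11.4% of all promoters contained. Slc10a2, Nr1h4, Nr0b2 and Gpbar1, the other members with a promoter in the table, had no place with 3 or fewer mismatches in this window. The Nr1h4 window (chr10:89506609-89506908) lies inside the annotated span of the gene, 89454234 to 89533585, so the outer end of that span was not searched. An exact half-site was present in the Slc51a, Slc51b and Nr1h4 windows but not in that of Fabp6, beside 16.3% of all promoters. These matches describe letters in the sequence, and binding was not measured.

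The libraries held 21194104 to 22821486 gene counts in knockout and 18918880 to 25867997 in wild type. Smad4 itself was at 91.9, 102 and 59.0 counts-per-million units (CPM, scaled by TMM as all CPM here) in the knockout libraries, against 132, 152 and 111 CPM in the wild-type libraries. The 12 epithelial markers summed to between 23214 and 26759 CPM in knockout and between 22572 and 26601 CPM in wild type, while the 6 fibroblast markers summed to between 8.26 and 12.9 CPM in knockout and between 3.39 and 4.90 CPM in wild type. The tissue is labelled stroma, but epithelial markers were far more abundant than fibroblast markers in all 6 libraries. Epcam, of the epithelial list, was at 2300 to 2506 CPM in knockout and 2143 to 2229 CPM in wild type. Col3a1, of the fibroblast list, was at 1.09 to 3.37 CPM in knockout and 0.913 to 1.42 CPM in wild type. By these markers the libraries held mainly epithelial RNA, in contrast to the label. The reason was not tested. Epithelial cells are where the bile acid carriers are known to act. In tissue RNA such as this, fewer cells of a type and less RNA per cell cannot be told apart.

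Fabp6 was the member that set the groups apart, at 33.9% of its wild-type mean in knockout. It lies on chromosome 11 from 43596049 to 43601540 (mm10, minus strand, ENSMUSG00000020405, protein coding). It was counted 256, 484 and 373 times in the knockout libraries, against 1116, 1009 and 1155 times in the wild-type libraries. Scaled, these are 11.8, 23.0 and 16.5 CPM in knockout and 51.2, 54.2 and 46.0 CPM in wild type. Every knockout library lay below every wild-type library, and the highest knockout value was 23.0 CPM, against a lowest wild-type value of 46.0 CPM. The means were 17.1 ± 5.62 CPM in knockout and 50.4 ± 4.12 CPM in wild type (SD, n = 3 each). The log2 fold change was -1.56 ± 0.22 (SE).

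These Fabp6 values led to its choice and are given as a description, with no test. Of 14180 genes fitted, 13 had a more negative log2 fold change, and of the 9244 with a mean of at least 10 CPM, 5 did. In the authors' deposited table the log2 fold change of Fabp6 was -1.38. Counted in the same way for all genes, 6.52% had every knockout library below every wild-type library, and 1 of the 6 fitted members, Fabp6, did. No member and no other gene passed the edgeR quasi-likelihood test at an adjusted p of 0.05 (0% of genes called), where 1211 genes, 8.54%, had an unadjusted p under 0.05. DESeq2 called 1 of the 6 fitted members, Fabp6, beside 0.292% of genes called as lower in knockout. As Fabp6 was chosen on this contrast, nothing is read from these counts.

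**Figure D1:**
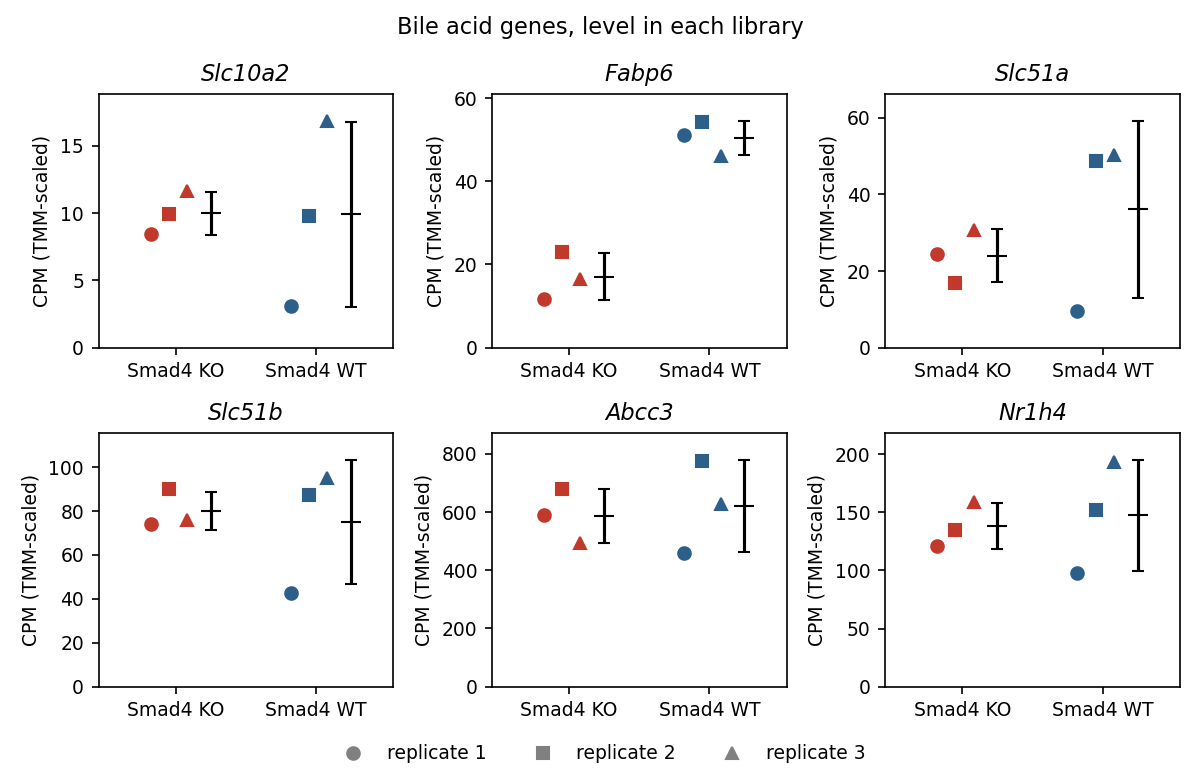
TMM-scaled CPM of 6 bile acid genes in each library, Smad4 KO (red) left and Smad4 WT (blue) right, with marker shape for the replicate number and black bars for the mean and SD (n = 3). Fabp6 separated the groups, at 11.8 to 23.0 CPM in KO and 46.0 to 54.2 CPM in WT, and the other 5 genes overlapped.

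As a further description, the same Fabp6 reads were set against epithelial transcripts in place of the library total. These are the counts on which Fabp6 was chosen, and the epithelial sums overlapped between the groups. A lower ratio in knockout therefore followed from that choice and is no separate support. Fabp6 stood at 0.507, 0.859 and 0.642 reads per 1000 reads of the 12 epithelial markers in knockout, against 2.27, 2.30 and 1.73 in wild type. The knockout mean of this ratio was 31.9% of the wild-type mean. With the epithelial sum as the library size, the log2 fold change was -1.65 ± 0.20 (SE).

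Other marker lists were compared between the same libraries by an exact two-sided permutation test of their sums, where 3 against 3 libraries cannot give a p below 0.1. Enteroendocrine markers (2 genes) summed to 97.9 to 102 CPM in knockout and 119 to 129 CPM in wild type (exact p = 0.1), with no overlap. B cell markers (9 genes) summed to 76.1 to 167 CPM in knockout and 25.9 to 40.2 CPM in wild type (exact p = 0.1), with no overlap, and the fibroblast sums given above did not overlap either (exact p = 0.1). Goblet cell markers (4 genes) summed to 5738 to 8329 CPM in knockout and 8280 to 9469 CPM in wild type (exact p = 0.2). Their part in the lower Fabp6 was not tested.

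The summed markers of the small intestine, where Fabp6 is most abundant, overlapped between the groups. The 12 small intestinal enterocyte markers summed to 463 to 551 CPM in knockout and 422 to 610.2 CPM in wild type (exact p = 0.6), nearly all of it from Slc5a1 and Fabp2, which the colon libraries held at 239 to 289 and 187 to 227 CPM in knockout and 262 to 291 and 125 to 290.3 CPM in wild type. Apoa1, an apolipoprotein gene of the list, was counted 0, 1 and 0 times in knockout and 3, 9 and 3 times in wild type, at most 0.483 CPM, and its groups did not overlap. Apoa4, Apoc3, Slc2a2 and Lct had at most 0.183 CPM in any library, and their groups overlapped. Alpi, Enpep, Mttp, Rbp2 and Sis were higher than these, were fitted, and overlapped between the groups. Alpi, for example, was at 16.1 to 19.9 CPM in knockout and 6.55 to 29.5 CPM in wild type. Of the 4 Paneth cell markers with a row, Defa24 and Mptx2 were at 0 in all knockout libraries and at most 0.159 CPM in wild type. Itln1, an intelectin gene, was at 2.16, 1.57 and 1.597 CPM in knockout, against 2.52, 2.68 and 7.21 CPM in wild type, so every knockout library lay below every wild-type library (log2 fold change -1.23 ± 0.43 SE, edgeR adjusted p = 0.424). Lyz1, a lysozyme gene, overlapped (log2 fold change 0.76 ± 0.66). The list summed to 3.73 to 9.54 CPM in knockout and 3.76 to 9.04 CPM in wild type (exact p = 0.9). The part of these genes in the lower Fabp6 was not tested.

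Uptake was represented by Slc10a2, which was scarce. Slc10a2 (chromosome 8) was at 8.41, 9.92 and 11.6 CPM in knockout, against 3.07, 9.77 and 16.9 CPM in wild type. The knockout libraries lay within the wild-type range. The means were 9.99 ± 1.61 CPM in knockout and 9.90 ± 6.89 CPM in wild type (SD, n = 3 each), with a log2 fold change of 0.01 ± 0.49 (SE). The wild-type values differed 5.49-fold among themselves, against 1.38-fold among the knockout values.

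Export was represented by 3 genes, none of which separated the groups. Slc51a (chromosome 16), the larger subunit of the heteromeric carrier, was at 24.5, 16.9 and 30.8 CPM in knockout, against 9.49, 48.7 and 50.3 CPM in wild type. All knockout values fell between the lowest and the other wild-type values, and the log2 fold change was -0.59 ± 0.54 (SE). Slc51a shares bases with Pcyt1a on the opposite strand, and whether counting used strand is unknown, so some of its reads could belong to that gene. Slc51b (chromosome 9), the smaller subunit, was at 73.9, 90.2 and 76.1 CPM in knockout, against 42.5, 87.5 and 95.0 CPM in wild type (log2 fold change 0.09 ± 0.27). Abcc3 (chromosome 11) was at 589, 679.6 and 494 CPM in knockout, against 459.8, 776 and 629 CPM in wild type (log2 fold change -0.08 ± 0.20).

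The receptor Nr1h4 (chromosome 10) was at 121, 135 and 159 CPM in knockout, against 97.6, 152 and 193 CPM in wild type. The groups overlapped, and the log2 fold change was -0.09 ± 0.23 (SE). The hormone gene Fgf15 (chromosome 7) was counted 0, 0 and 2 times in knockout and 1, 0 and 1 times in wild type, all under the floor of 3 counts, which equals 0.116 to 0.159 CPM in these libraries. No fold was drawn for Fgf15, whose level cannot be told from 0 at this depth. Gpbar1 (chromosome 1) was counted 6, 6 and 3 times in knockout and 1, 2 and 5 times in wild type, too few to pass the filter on low counts. In the authors' deposited table, the log2 fold changes of the 7 members other than Fabp6 were between -0.27 and 0.33. The upper end is Gpbar1, with the few counts just given. The lower end is Slc51a, at -0.59 in the fit used here, so the 2 sets of values are not interchangeable.

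Levels of different genes were compared per length, as TPM (counts per exon length, scaled to one total in every library) from the union of annotated exons. In wild type the order was Abcc3 at 326 ± 71.7, Fabp6 at 318 ± 42.2, Slc51b at 313 ± 102, Nr1h4 at 189.7 ± 48.8, Slc51a at 33.0 ± 20.2 and Slc10a2 at 6.93 ± 4.49 TPM (SD, n = 3). Abcc3, Fabp6 and Slc51b did not differ beyond their spread, and Slc51b and Nr1h4 overlapped, whereas Slc51a and Slc10a2 each lay below all genes placed before them except that the lowest Slc51a value, 9.68 TPM, lay under the highest Slc10a2 value, 11.4 TPM. In knockout the order was Slc51b at 347 ± 36.7, Abcc3 at 317 ± 51.7, Nr1h4 at 184 ± 22.8, Fabp6 at 109 ± 35.1, Slc51a at 23.1 ± 6.55 and Slc10a2 at 7.37 ± 1.06 TPM. Fabp6 stood above Nr1h4 in every wild-type library and below it in every knockout library. As Fabp6 was chosen on these counts, this change of order and the ratios that follow are a description and no separate support. The ratio of Fabp6 TPM to Nr1h4 TPM was 0.468, 0.819 and 0.4995 in knockout, against 2.52, 1.72 and 1.15 in wild type. Its ratio to Slc51b TPM was 0.236, 0.377 and 0.322 in knockout, against 1.78, 0.917 and 0.717 in wild type. The ratios to Slc10a2 and Abcc3 did not overlap between the groups either. The ratio to Slc51a TPM did overlap, at 3.20, 9.10 and 3.59 in knockout and 36.0, 7.43 and 6.11 in wild type. The 2 subunit genes of one carrier differed widely, with Slc51b above Slc51a in all 6 libraries.

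**Figure D2:**
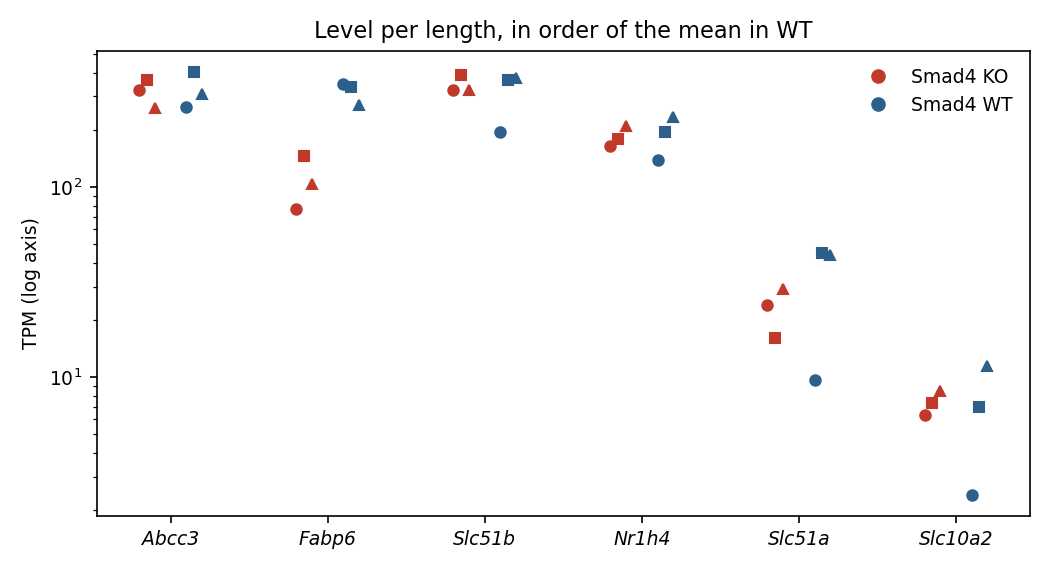
TPM of 6 members on a log axis, ordered by the mean in WT, with one point per library (Smad4 KO red and left, Smad4 WT blue and right; circle, square and triangle are replicates 1, 2 and 3). Fabp6 sat beside Abcc3 and Slc51b in WT, at 318 TPM on average, and under Nr1h4 in KO, at 109 TPM.

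Among the members other than Fabp6, wild-type replicate 1 stood apart. All 5 fitted members other than Fabp6 were lowest in wild-type replicate 1, a library that held the lowest value of 24.3% of all fitted genes. Slc10a2, Slc51a, Slc51b and Nr1h4 were highest in wild-type replicate 3, as were 18.8% of all genes. Fabp6, at 51.2 CPM, was not low in wild-type replicate 1. That library also held less of the colonocyte carbonic anhydrase Car1 (1169 CPM, against 5248 and 5414 CPM in the other wild-type libraries and 2068 to 2605 CPM in knockout) and more of the hindgut position gene Hoxd13 (144 CPM, against 28.3 and 47.2 CPM in the other wild-type libraries and 16.7 to 76.3 CPM in knockout). The 5 smooth muscle markers, of the muscle layer beneath the scraped tissue, summed to 52.0 CPM there, against 14.7 and 17.2 CPM in the other wild-type libraries and 14.1 to 15.2 CPM in knockout. The part of these differences in the levels of the carriers was not tested.

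Pearson correlations of log2 CPM between these 5 members, 10 relations over 6 libraries, were all positive, from 0.45 to 0.94. Without the 2 libraries farthest from the median of the first gene of each pair, r ran from -0.40 to 0.89 and was negative in 3 of the 10. Of the 10, 1 passed by Pearson's r and 0 by Spearman's rho when adjusted over the relations by Benjamini-Hochberg. That pair was Nr1h4 and Slc10a2 (r = 0.94, exact permutation p = 0.00278, adjusted p = 0.0278), while Spearman's rho was 0.94 (exact permutation p = 0.0167, adjusted p = 0.167). Without wild-type replicates 1 and 3, the 2 libraries farthest from the median of Slc10a2, r was 0.89. Slc51a with Slc51b gave r = 0.79 (exact permutation p = 0.0458, adjusted p = 0.0764) and rho = 0.66 (exact permutation p = 0.175, adjusted p = 0.25), and without those 2 libraries r was -0.05, so the relation rested on them. Fabp6 fell into 2 separate clusters by group, so no correlation over all libraries is given for it.

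**Figure D3:**
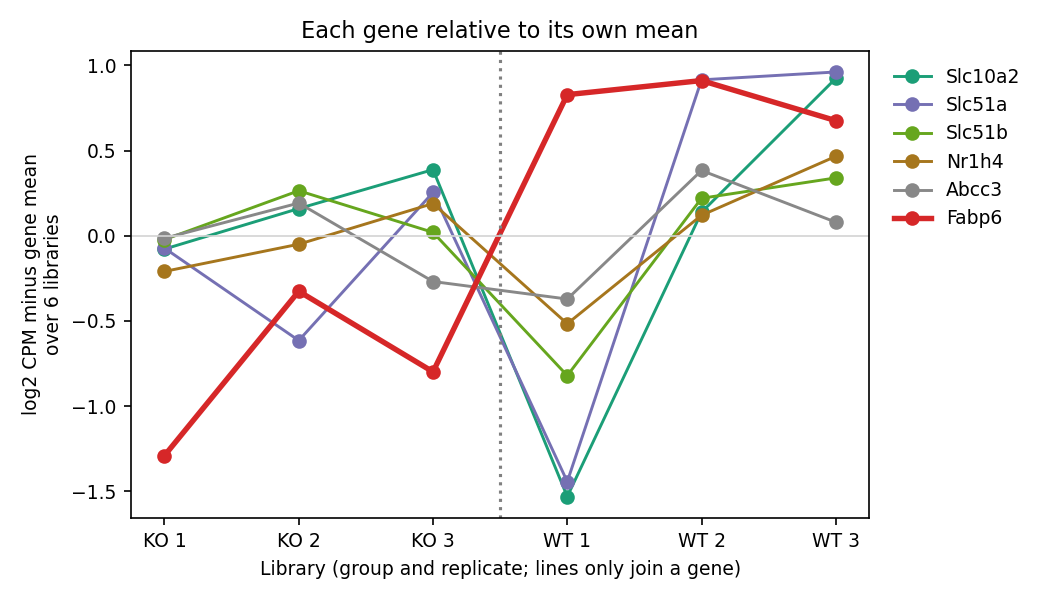
log2 CPM of each gene minus its mean over the 6 libraries, KO libraries left and WT libraries right of the dotted line, with lines only joining the values of a gene. Fabp6 (thick red) was under 0 in the 3 KO and above 0 in the 3 WT libraries, and the 5 other genes were lowest in WT replicate 1.

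The values of the other members depended on which wild-type library was included, more than that of Fabp6 did. Without wild-type replicate 1 the log2 fold change was -1.55 ± 0.23 (SE) for Fabp6, -1.04 ± 0.21 for Slc51a, -0.42 ± 0.24 for Slc10a2, -0.31 ± 0.14 for Nr1h4, -0.25 ± 0.15 for Abcc3 and -0.18 ± 0.10 for Slc51b. Slc10a2 and Slc51b were thus on the other side of 0 from their values with all libraries. Without that library DESeq2 called Slc51a and Fabp6, the latter chosen on this contrast, as lower in knockout. Beside them, 1.22% of all genes were called as lower. In the same setting edgeR called no member. Without wild-type replicate 3 the log2 fold change was 0.65 for Slc10a2, 0.30 for Slc51b, 0.15 for Nr1h4 and -0.27 for Slc51a. Without wild-type replicate 2 it was -0.32 for Slc51a and 0.11 for Abcc3. Fabp6 stood at -1.62 without wild-type replicate 3 and -1.51 without wild-type replicate 2. When a knockout library was left out instead, Fabp6 was the member that moved most. It was at -1.35, -1.83 and -1.53 without knockout replicates 1, 2 and 3, against -0.60, -0.39 and -0.79 for Slc51a. The remaining fitted members spanned narrower ranges than Slc51a.

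No gene of the wider bile acid pathway passed the test with all libraries. Of 45 listed genes in 6 groups, 43 had a row and 35 were fitted, 13 with a positive and 22 with a negative log2 fold change. Their median was -0.08, beside -0.01 for all fitted genes. None passed edgeR (0% of all genes did) or DESeq2 (2.18% of all genes did). At an unadjusted p under 0.05, 3 (8.57%) were lower and 0 higher in knockout, beside 3.35% of all genes lower. The 3 were Cyp39a1, Cyp27a1 and Vdr.

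Cyp39a1, the oxysterol 7-alpha-hydroxylase, averaged 27.9 ± 0.627 CPM in knockout and 34.5 ± 2.89 CPM in wild type (SD, n = 3 each; log2 fold change -0.30 ± 0.09 SE, edgeR adjusted p = 0.283). Cyp27a1, the mitochondrial sterol 27-hydroxylase, averaged 7.63 ± 1.04 CPM in knockout and 10.9 ± 1.22 CPM in wild type (log2 fold change -0.51 ± 0.15, edgeR adjusted p = 0.291). All knockout libraries lay below all wild-type libraries for both, and for Klb, given below. These are 3 of the 35 fitted pathway genes (8.57%), near the share of 6.52% among all fitted genes. Of the genes of hepatic synthesis and conjugation, Cyp8b1, Akr1d1 and Slc27a5 had at most 1 count in any library. Baat, of the same list, was fitted, at 12 to 20 counts in knockout and 12 to 28 counts in wild type.

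Vdr, the vitamin D receptor, which also binds the secondary bile acid lithocholic acid, averaged 449 ± 39.4 CPM in knockout and 571 ± 98.1 CPM in wild type (log2 fold change -0.35 ± 0.14, edgeR adjusted p = 0.536). Among the other receptors and partners, the xenobiotic receptor Nr1i2 (PXR) had a log2 fold change of -0.16 ± 0.11 and the FXR partner Rxra one of 0.08 ± 0.17. Of the 8 genes known to regulate Slc10a2 or Fabp6, all were fitted, 3 positive and 5 negative, with a median of -0.07. Nr5a2 (LRH-1) had -0.13 ± 0.10 and the transcription factor gene Maf -0.30 ± 0.38.

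Among other transporters, 5 of 8 genes were fitted, with a median of -0.25. The multidrug pump gene Abcb1a averaged 199 ± 18.4 CPM in knockout and 248 ± 60.9 CPM in wild type (log2 fold change -0.32 ± 0.18). The organic anion pump Abcc2 (MRP2) had -0.57 ± 0.54 at a mean below 1 CPM in both groups. Abcc4 (MRP4), another basolateral pump, was at 26.4 ± 1.10 CPM in knockout and 20.6 ± 12.4 CPM in wild type (log2 fold change 0.36 ± 0.35). Without wild-type replicate 1 it was the single pathway gene that edgeR called, as higher in knockout (log2 fold change 0.98 ± 0.10, adjusted p = 0.0249), beside 0.0346% of all genes called as higher. In that setting DESeq2 called 6 of the pathway and Fabp genes, 5 of them lower in knockout, beside 3.48% of all genes called in either direction.

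Of the 4 fitted detoxification genes, Cyp2c55, a cytochrome P450 of the colon, averaged 263 ± 113 CPM in knockout and 515 ± 325 CPM in wild type (log2 fold change -0.97 ± 0.56, edgeR adjusted p = 0.749). The bilirubin glucuronosyltransferase gene Ugt1a1 had -0.56 ± 0.38. On the receptor side of Fgf15, Klb, the coreceptor beta-klotho, had -0.76 ± 0.39 at 1.13 ± 0.523 CPM in knockout and 1.91 ± 0.493 CPM in wild type. Malrd1 (Diet1), which takes part in Fgf15 production in the mouse ileum, had -0.27 ± 0.52.

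**Figure D4:**
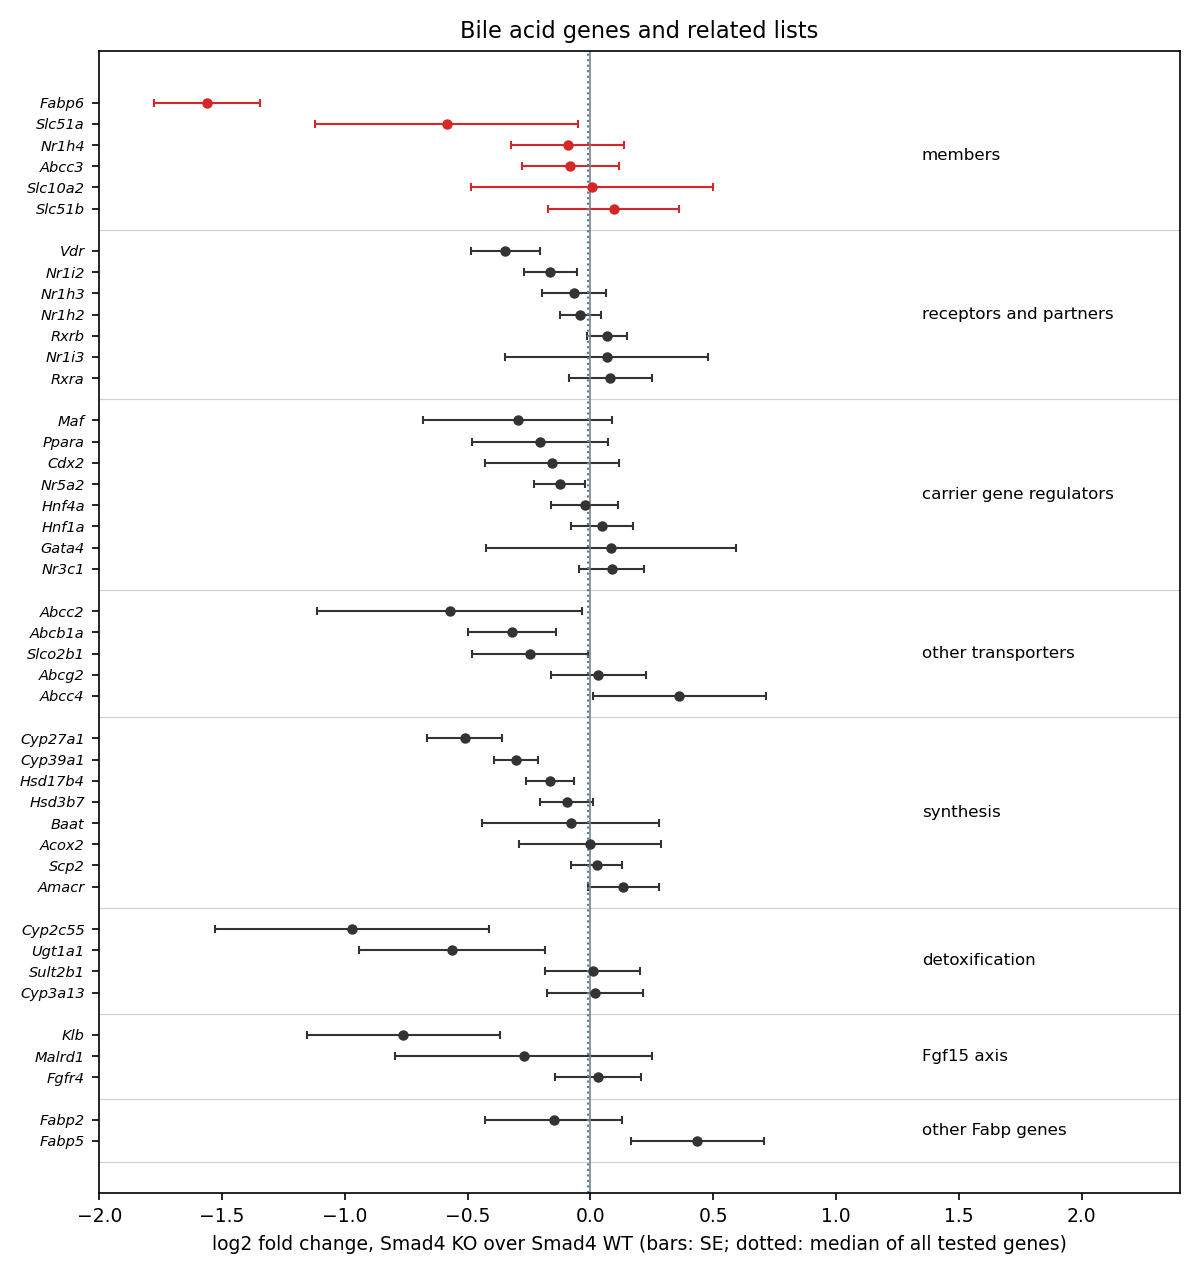
log2 fold change of Smad4 KO over Smad4 WT with its SE for the 6 fitted members (red) and the fitted genes of 7 related lists (black), with the median of all fitted genes dotted. Fabp6 at -1.56 lay farthest from 0, and Cyp2c55 at -0.97 was next.

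Of the 8 other fatty acid binding protein genes, 2 were fitted and neither passed the test. Fabp2, the intestinal form, averaged 205 ± 20.2 CPM in knockout and 228 ± 89.2 CPM in wild type (log2 fold change -0.15 ± 0.28 SE, edgeR adjusted p = 0.951). Fabp5, the epidermal form, averaged 2.67 ± 0.607 CPM in knockout and 1.98 ± 0.448 CPM in wild type (log2 fold change 0.44 ± 0.27, edgeR adjusted p = 0.78). Fabp1, Fabp3, Fabp4 and Fabp7 did not pass the filter on low counts.

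The 5 genes whose profile over the 6 libraries came closest to that of Fabp6 were found among 8595 genes, those of the 9244 with a mean of at least 10 CPM that remained once Gm and Rik gene models and immunoglobulin and T cell receptor segments were left out by name. Closeness was the root mean square difference of log2 CPM after each gene was centred on its own mean, and the 5 were Ybx2 (0.43), Cps1 (0.44), Axin2 (0.46), Sned1 (0.46) and Ephb6 (0.47). Axin2, a scaffold protein of beta-catenin turnover, was at 21.3, 29.4 and 17.2 CPM in knockout, against 39.6, 37.9 and 42.8 CPM in wild type. Its knockout libraries lay below its wild-type libraries, as for Fabp6, with a log2 fold change of -0.83 ± 0.18 (SE). Cps1, the carbamoyl phosphate synthetase of the urea cycle, was at 6.07, 10.8 and 7.41 CPM in knockout, against 22.4, 12.7 and 12.03 CPM in wild type. All 5 had smaller differences than Fabp6, with log2 fold changes between -1.03 and -0.83, and as they were picked for their likeness no test is given.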

How the data were processed

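RNA-seq gene counts of 3 Smad4 knockout and 3 Smad4 wild-type mice were analysed. Mapping was to mm10 with TopHat 2.1.0, counting with HTSeq 0.5.4p5 and samtools 1.3.1, and testing with edgeR 3.4.2, per the labels' protocols. Bowtie 0.12.2, mm8 and mm10 are named per the submitters' processing notes. The library columns are raw counts as the authors deposited them. The mean normalised signal, log2 fold change, standard error and statistic (score columns), p-value and adjusted p-value are deposited values too, and the column names are those of DESeq2. Only their log2 fold changes are printed.

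Counts were filtered with filterByExpr, scaled by TMM and fitted with the edgeR 4.0.16 quasi-likelihood test in R 4.3.3 on a group term, with Benjamini-Hochberg adjustment over 14180 genes. SE was derived from the fold change and its F statistic (log2 fold change over root F). DESeq2 1.42.0 was an alternative. Both were tested on simulated data. Coordinates and exon lengths came from GENCODE M21, which held 98.1% of the gene IDs. Members and lists were chosen with earlier results of these data known. Named from each list were the 2 genes with the smallest p and any called; Rxra, Abcc4, Car1, Hoxd13 and the marker and hepatic genes singled out were chosen after their values were seen. Of the 5 genes like Fabp6, 2 are described. Animals were labelled as separate mice. No replicate pair was alike within counting noise. Floors cover counting error only. Alternatives were other scalings and filters, the replicate number as a block and the omission of each library.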

Additional observations from a re-analysis of the deposited data

How the results depend on the processing

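The log2 fold change of Fabp6 was between -1.83 and -1.35 in all 19 alternatives run. Fabp6 was chosen on knockout counts that all lay far below its wild-type counts. Its negative sign was thus fixed in advance, and the size of the difference was selected with it. All alternatives reuse the same libraries, so their range is no separate support for the size. The ratio of Fabp6 to the epithelial sum, bound by the same choice, differed by -1.61 to -1.33 reads per 1000 without 1 library (-1.43 with all). Other scalings do not enter that ratio. The count of genes called by edgeR over all genes was 0, and it was 157 with no low-count filter, 0 to 266 without 1 library (266 without KO replicate 3, 17 without WT replicate 1) and 336 with DESeq2. DESeq2 without 1 library, added after seeing the data, called 142 to 483 (142 without KO replicate 1, 229 without KO replicate 2, 374 without KO replicate 3, 483 without WT replicate 1, 233 without WT replicate 2, 221 without WT replicate 3). Pathway and Fabp genes called were 0, except 1 (Abcc4) with edgeR and 6 (Abcb1a, Abcc4, Cdx2, Fabp2, Ugt1a1 and Vdr, 5 of them lower) with DESeq2 without WT replicate 1. The cause was not tested. Replicate numbers gave correlations of deviations of -0.05, -0.14 and 0.14, so they were not taken to pair the mice; with the replicate block, 0 genes were called and Fabp6 had a log2 fold change of -1.60. Counts of Fgf15 and Gpbar1 were too low to compare.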
